A study of Mus musculus with 5 samples.

Results

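Captures that carried transcripts of a Kupffer cell and of a sinusoidal endothelial cell together were described in single-cell RNA counts of mouse liver. A capture is the set of molecules under 1 cell index of the microwell (BD Rhapsody) run. A capture was called joined when it held at least 10 molecules of the Kupffer genes Clec4f, Cd5l and Vsig4 summed, and at least 10 molecules of the endothelial genes Stab2, Clec4g, Kdr and Dnase1l3 summed. Of 17188 captures that passed the filters (at least 500 molecules, at least 200 genes, at most 25% mitochondrial molecules), 890 were joined, which is 5.18%. The gate genes chose these captures, so levels of those genes are given as a description only.

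The livers were from wild-type male mice operated on when 9 weeks old and taken 2 weeks later, after partial ligation of the inferior vena cava (pIVCL, 3 libraries), which raises pressure in the hepatic veins, or after a sham operation (2 libraries). Hepatocytes had been depleted by slow centrifugation, and dead cells and erythrocytes on a density gradient. The labels place pIVCL 1, sham 1 and sham 2 in batch 2021.3, and pIVCL 2 and pIVCL 3 in batch 2021.7, so that within a batch sham can be compared with pIVCL 1 alone. The labels name a mouse for each library without saying that the mice differ, and p-values then reflect only how these libraries vary, which may be technical variation. Deposited libraries held 12448260 to 30523228 molecules. Library pairs shared 8 to 30 cell indices, and 0 of the joined captures shared one with a joined capture of another library.

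Kupffer cells are the resident macrophages of the liver. They sit on the wall of the sinusoid, in contact with the fenestrated endothelial cells and, through processes that cross that wall, with stellate cells. Sinusoidal endothelium differs along the blood path: Wnt2 and Kit mark the part near the central vein, whereas Dll4 and Efnb2 mark the part near the portal tract. Whether the cells of a joined capture had stayed attached through digestion or met in a well cannot be told apart from these counts.

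Joined captures were found in every library. There were 77, 276 and 64 in pIVCL 1, 2 and 3, against 201 and 272 in sham 1 and 2. As a share of filtered captures they made up 2.96, 7.92 and 2.26% in pIVCL, against 4.53 and 7.10% in sham. The exact 95% binomial intervals, which cover counting error only, were 2.34 to 3.69%, 7.05 to 8.87% and 1.75 to 2.88% in pIVCL, against 3.93 to 5.18% and 6.31 to 7.96% in sham. The libraries differed beyond counting error within each group, and the groups overlapped. The mean was 4.38 ± 3.09% in pIVCL and 5.81 ± 1.82% in sham (SD, n = 3 and 2), with a two-sided exact permutation p of 0.6, where these libraries cannot give a p below 0.1. Within batch 2021.3 the pIVCL library lay 2.85 points under the sham mean (difference -2.85).

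Set against the Kupffer captures alone, the joined share was much larger. Of captures past the Kupffer threshold, 23.5, 45.8 and 14.0% were joined in pIVCL, against 20.3 and 33.7% in sham. Of captures past the endothelial threshold, 4.77, 12.6 and 7.86% were joined in pIVCL, against 6.67 and 10.1% in sham. The number of joined captures was divided by the number that would be seen if both thresholds were passed independently, a pairing ratio. This ratio was 0.379, 0.731 and 0.487 in pIVCL, against 0.299 and 0.477 in sham (exact permutation p = 0.4), and within batch 2021.3 the difference was -0.00830. All 5 ratios lay below 1, and pIVCL 2 had the highest.

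The same ratio for other pairs gave a scale, with B cell captures set by Cd79a, Cd79b, Ms4a1 and Ighm, T cell captures by Cd3e, Cd3d, Cd3g and Trbc2, and stellate captures by Dcn, Colec11, Ecm1 and Rgs5. Its median over the 5 libraries was 0.205 for Kupffer with B cells, 0.119 for Kupffer with T cells, 0.268 for endothelial with B cells and 0.168 for endothelial with T cells. For Kupffer with stellate captures it was 0.865, and for endothelial with stellate captures 0.368. The median for Kupffer with endothelial captures, 0.477, thus lay above the medians with lymphocytes and below that of Kupffer with stellate captures. Ranges overlapped: the ratio of Kupffer with T cells reached 0.827 in pIVCL 2, the library with the highest ratio for Kupffer with endothelial captures too. In sham the order turned round for B cells, with 0.441 and 0.504 for Kupffer with B cells and 0.677 and 0.572 for endothelial with B cells. Each lay above the ratio of Kupffer with endothelial captures in the same library, 0.299 in sham 1 and 0.477 in sham 2. These ratios were not tested against each other.

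Clec4f encodes a lectin receptor of Kupffer cells, Cd5l a secreted scavenger protein of macrophages and Vsig4 a complement receptor. Stab2 encodes a hyaluronan scavenger receptor, Clec4g a sinusoidal lectin, Kdr the VEGF receptor 2 and Dnase1l3 a secreted DNase. Markers of both labelled cell types were present: joined captures averaged 40.6, 36.7 and 36.2 molecules of Clec4f in pIVCL, against 49.6 and 45.6 in sham. For Clec4g they averaged 14.3, 18.8 and 11.3 molecules in pIVCL, against 13.1 and 14.5 in sham. Pure Kupffer captures (10 or more Kupffer gate molecules, at most 2 endothelial ones) averaged 0.0385 to 0.0846 molecules of Clec4g in pIVCL and 0.0637 to 0.106 in sham. Pure endothelial captures, defined the other way round, averaged 0.0480 to 0.0782 molecules of Clec4f in pIVCL and 0.0405 to 0.0580 in sham. The low values of Clec4f and Clec4g in pure captures of the other partner are set by the limit of 2 molecules. Stab2 reached 0.423 to 0.543 molecules in pure Kupffer captures of pIVCL and 0.436 to 0.688 in those of sham.

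The gate sums fell into groups. Among captures past the Kupffer threshold, 382 held no endothelial gate molecule, 794 held 1 to 2, 1119 held 3 to 9, 143 held 10 to 19, 167 held 20 to 49, and 580 held 50 or more. Among captures past the endothelial threshold, 8079 held no Kupffer gate molecule, 1184 held 1 to 2, 178 held 3 to 9, 72 held 10 to 19, 93 held 20 to 49, and 725 held 50 or more. On either side the highest of these bins thus held more joined captures than the bins next to the threshold. Both sums reached 50 in 53.2, 48.9 and 37.5% of joined captures in pIVCL, against 53.7 and 57.7% in sham.

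Some captures lay close to the threshold, more often on the endothelial than on the Kupffer side except in pIVCL 2. The lower of both sums was 10 to 14 in 14, 27 and 12 joined captures in pIVCL, against 50 and 43 in sham. For captures just inside the threshold on the endothelial side (10 to 14 molecules), the median of endothelial molecules outside the gate (31 further genes such as Pecam1 and Eng, called core genes here) was 31, 91 and 9.5 in pIVCL, against 13 and 12 in sham. For captures just outside, with 5 to 9 endothelial gate molecules, it was 7, 5 and 4 in pIVCL, against 5 and 6 in sham. On the Kupffer side, the median of Kupffer core molecules was 80.5, 52 and 32.5 just inside the threshold in pIVCL, against 56 and 66 in sham, and 17, 36.5 and 33.5 just outside it in pIVCL, against 21 and 28.5 in sham. Captures just inside on the endothelial side thus held more endothelial core molecules than those just outside in each library, by the most in pIVCL 2. They held fewer than pure endothelial captures, whose medians were 180, 171 and 183.5 in pIVCL, against 251 and 238 in sham. On the Kupffer side the median was also higher just inside, except in pIVCL 3, where 4 captures lay just inside.

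**Figure D1:**
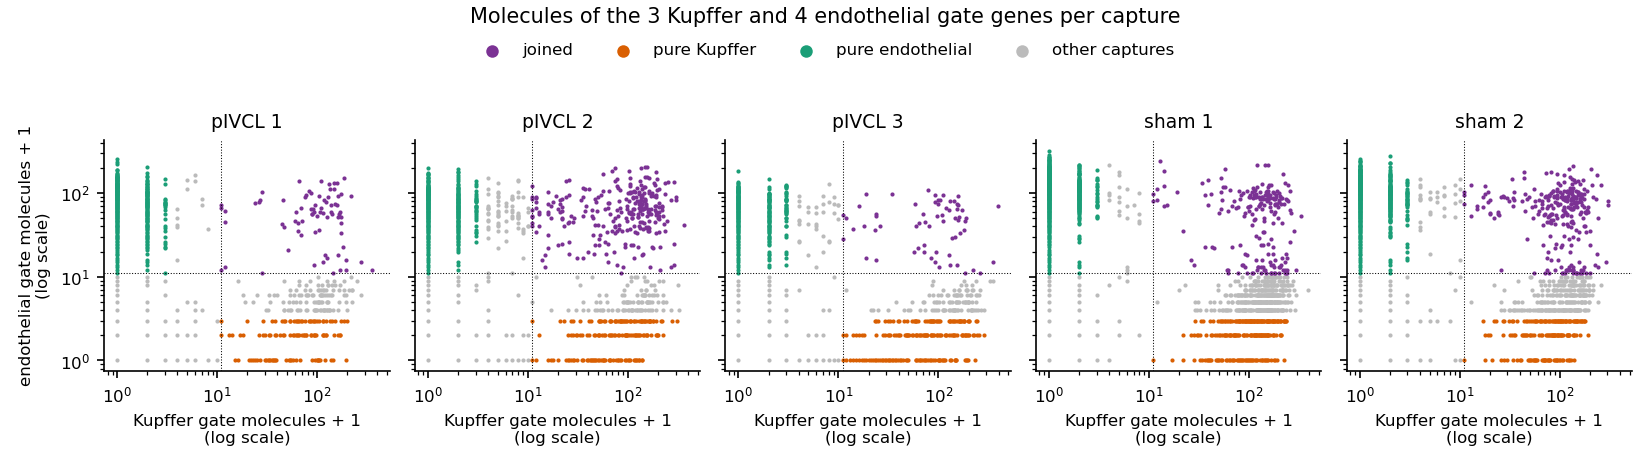
Molecules of the 3 Kupffer gate genes (x axis, plus 1, log scale) and of the 4 endothelial gate genes (y axis, plus 1, log scale) per capture for the 5 libraries, with dotted lines at the threshold of 10. Joined captures (purple) form a cloud at high values of both sums, with a thin band just above the endothelial threshold that is densest in sham 1 and sham 2.

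B and T cell captures showed how often gate molecules occur in cells that should lack them. At least 10 Kupffer gate molecules were present in 0.637 to 3.54% of B cell captures in pIVCL, against 9.84 and 10.6% in sham. At least 10 endothelial gate molecules were present in 0.849 to 16.8% of B cell captures in pIVCL, against 45.9 and 40.4% in sham. In T cell captures at least 10 Kupffer gate molecules were present in 0, 14.3 and 0.524% in pIVCL, against 2.66 and 3.39% in sham, and at least 10 endothelial ones in 1.19, 31.9 and 4.19% in pIVCL, against 12.2 and 11.9% in sham. B cell captures thus had the highest shares in sham, and T cell captures in pIVCL 2. The median Kupffer gate sum of B and T cell captures was 0 in each library, and the endothelial one was 0 except in B cell captures of sham 1 and 2, at 2 and 4. B cell captures were also deeper in sham, with medians of 1991, 2260 and 1515 molecules in pIVCL, against 5515 and 5088 in sham. The part of free RNA in the joined captures was not tested.

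Joined captures were deep. Their median depth was 13648, 13076.5 and 12503 molecules in pIVCL, against 13884 and 13053 in sham. Pure Kupffer captures had medians of 4972.5, 5974.5 and 4126 molecules in pIVCL, against 7699 and 6547 in sham, and pure endothelial captures 4243, 4318 and 4626.5 in pIVCL, against 5231 and 4994 in sham. Joined captures thus held about as many molecules in each library, whereas the pure classes were shallower in pIVCL.

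The median depth of joined captures divided by the sum of both pure medians was 1.48, 1.27 and 1.43 in pIVCL, against 1.07 and 1.13 in sham. It was above 1 in 5 of 5 libraries, and its difference between pIVCL and sham had an exact permutation p of 0.2. A count threshold favours deep captures, and the limit of 2 molecules of the other partner favours shallow pure captures. With pure classes allowed up to 9 such molecules, the ratio was 1.23, 1.14 and 1.08 in pIVCL, against 0.937 and 0.965 in sham. With the threshold applied to captures thinned to 2000 molecules, and depth read before thinning, the ratio was 1.07, 1.21 and 0.922 in pIVCL, against 0.918 and 0.982 in sham. The depth of joined captures thus lay above the sum of both classes in each library under the first choice, and below it in both sham libraries under the others.

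**Figure D2:**
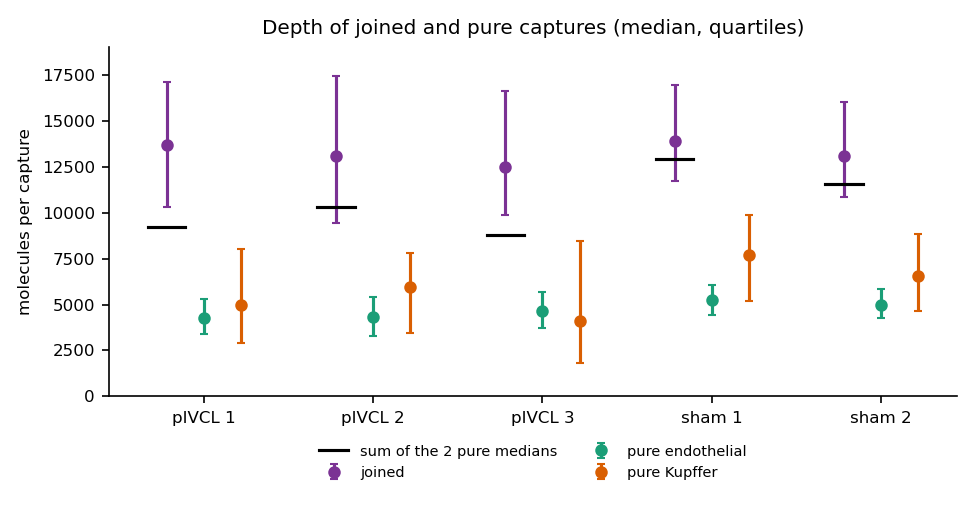
Molecules per capture (y axis, linear) for joined, pure endothelial and pure Kupffer captures of the 5 libraries, as medians (points) with quartiles (bars). Black lines mark the sum of both pure medians, which lies below the joined median in each library, by the least in sham 1.

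Complexity was also higher at equal depth. When each capture was thinned to 2000 molecules, joined captures held medians of 1189, 1217 and 1232.5 genes in pIVCL, against 1192 and 1189 in sham. Pure endothelial captures held 1127, 1186 and 1202 genes in pIVCL, against 1172 and 1160 in sham, and pure Kupffer captures 1071, 1103 and 1127 in pIVCL, against 1110 and 1072.5 in sham. The joined value was the highest of the classes in 5 of 5 libraries. No joined capture had under 2000 molecules, whereas 11, 7 and 81 pure Kupffer captures in pIVCL and 27, 50 and 32 pure endothelial captures in pIVCL were left out for that reason, against 0 and 0 of each class in sham. Without thinning, the medians of joined captures were 3746, 4063 and 4087.5 genes in pIVCL, against 4012 and 3822.5 in sham. Mitochondrial molecules made up a median of 6.51 to 7.51% of joined captures in pIVCL and 7.36 to 7.54% in sham, against 6.40 to 8.53% of pure Kupffer and 6.57 to 8.04% of pure endothelial captures over all libraries.

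The amount of each partner was read from the core genes, which the gate did not use, 24 for Kupffer cells (such as C1qa, Adgre1 and Csf1r) and 31 for endothelium. A dose of 1 means as many core molecules as the median pure capture of that partner in the same library. The median Kupffer dose was 1.74, 1.36 and 1.88 in pIVCL, against 1.37 and 1.41 in sham. The median endothelial dose was 1.02, 1.15 and 1.01 in pIVCL, against 0.773 and 0.849 in sham. The median endothelial dose was thus near 1 in pIVCL and below 1 in sham, and the median Kupffer dose was above 1 in each library. The limit of 2 molecules of the other partner favours shallow pure captures, which can raise these doses. Doses against pure classes with other limits are not given here.

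Doses spread widely between members. The endothelial dose was below 0.25 in 9, 5 and 6 joined captures in pIVCL, against 43 and 33 in sham. The Kupffer dose was below 0.25 in 2, 28 and 4 joined captures in pIVCL, against 13 and 12 in sham. Such small endothelial doses made up 11.7, 1.81 and 9.38% of joined captures in pIVCL, against 21.4 and 12.1% in sham, and the share was highest in sham 1. Across captures within a library the doses were nearly unrelated, with Spearman coefficients from -0.19 in sham 1 to 0.14 in pIVCL 2, given as a description over captures that share a library.

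Gene by gene, joined captures came close to a weighted sum of the pure classes. For each library the mean pure Kupffer and mean pure endothelial profiles were added with weights set from the core genes alone. The observed total over the predicted total was 1.04, 1.03 and 1.05 in pIVCL, against 1.05 and 1.00 in sham. Of genes at 30 CPM (molecules of a gene per 1000000 molecules of the class) or more, 91.6, 99.0 and 93.9% lay within 1.5-fold of the mixture in pIVCL, against 98.3 and 99.0% in sham. Of 4400 genes compared in each library, 4036 (91.7%) lay within 1.5-fold in all 5 libraries, 1 lay above it in all 5 and 0 below it in all 5. Genes at like levels in both pure classes lie near a mixture of any partner shares. Rps27a, for example, averaged 886 CPM in pure endothelial and 928 CPM in pure Kupffer captures. How many genes lie within 1.5-fold of a single pure class was not counted, so these percentages have no baseline.

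Kupffer cells supplied most of the mixture. They accounted for 66.8, 54.5 and 61.2% of the mixture molecules in pIVCL, against 72.2 and 69.0% in sham. The mean was 60.8 ± 6.18% in pIVCL and 70.6 ± 2.30% in sham (SD, n = 3 and 2; exact permutation p = 0.2). The groups did not overlap in this share, and pIVCL 2 was the lowest. Over the 11 exact tests of pIVCL against sham made here, the lowest Benjamini-Hochberg adjusted p was 0.733.

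**Figure D3:**
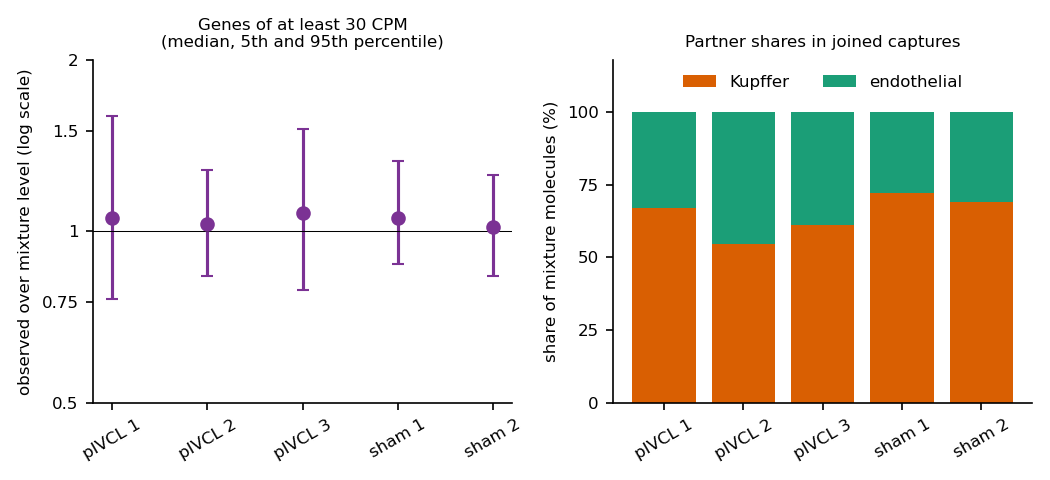
Left, observed level over the mixture of both pure profiles for genes of at least 30 CPM (log scale), as the median with the 5th and 95th percentile in each library. Right, the share of mixture molecules from Kupffer cells and endothelium, where the Kupffer share lies between 54.5 and 72.2%.

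Few genes exceeded the mixture. Gpm6a, which encodes a membrane glycoprotein, was the gene above 1.5-fold in each library, at 1.66, 1.94 and 1.97 times its mixture level in pIVCL, against 9.08 and 6.12 times in sham. Its level averaged 71.0 CPM in joined captures of pIVCL and 59.4 CPM in those of sham, against 92.7 CPM in pure endothelial captures of pIVCL and 25.5 CPM in those of sham, so that in pIVCL it lay below the pure endothelial level. Rspo3, a Wnt agonist made by endothelium of the central vein, stood at 1.67, 2.44 and 2.75 times in pIVCL, against 4.26 and 1.42 in sham. Plvap, which forms the diaphragms of endothelial openings, stood at 1.65, 1.31 and 1.49 times in pIVCL, against 1.35 and 1.55 in sham. Gpm6a and Rspo3 stood highest over the mixture in sham 1. Ctla2a, a protease inhibitor homologue, ranged from 1.45 to 1.61 times over the 5 libraries.

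The stellate genes Rgs5 and Colec10 and the matrix gene Bgn were also above the mixture in 5 of 5 libraries, Rgs5 at 1.28 to 1.82 times and Bgn at 1.30 to 1.54 times. At least 3 stellate gate molecules were present in 49.4, 30.8 and 32.8% of joined captures in pIVCL, against 29.4 and 31.6% in sham. In pure Kupffer captures that share was 7.69 to 19.2% in pIVCL and 11.1 and 16.1% in sham, and in pure endothelial captures 7.36 to 9.08% in pIVCL and 3.66 and 3.25% in sham. Stellate molecules were thus more frequent per joined capture than in either pure class, and joined captures were also deeper. The part of stellate cells in these genes was not tested.

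When CPM levels were set against the higher of the pure classes, 37 of 5384 genes were above it in all 5 libraries, and 0 were above it by 1.5-fold in all 5. The 10 with the largest lowest ratio were Fbln5, Vdac2, Nme1, Adprh, Ndufab1, Atp5g3, Rps27a, Rps13, Rps25 and Cops4. Fbln5, which encodes an elastic-fibre protein, had ratios of 1.12 to 1.92. The others, which include a mitochondrial channel, respiratory subunits and ribosomal proteins, had lowest ratios of 1.04 to 1.09. In a joined capture the molecules of each partner are diluted by those of the other. This comparison can therefore miss genes of 1 partner that are raised, and it cannot decide whether joined captures have genes of their own.

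The zone of the endothelial partner was read from 7 pericentral genes (Wnt2, Wnt9b, Kit, Cdh13, Ramp3, Fabp4, Selp) and 7 periportal ones (Dll4, Efnb2, Ltbp4, Ntn4, Galnt15, Efnb1, Efna1), none of them in the gate and each at under 10% of its endothelial level in pure Kupffer captures. Pericentral genes made up 28.4, 34.7 and 49.5% of zone molecules in joined captures of pIVCL, against 35.0 and 26.2% in those of sham. In pure endothelial captures they made up 23.1, 22.6 and 31.1% in pIVCL, against 29.8 and 22.9% in sham. The endothelial partner was thus more pericentral than the pure class in 5 of 5 libraries, by 3.28 to 18.4 points. The mean difference was 8.85 ± 6.29 points (SD, n = 5), and an exact two-sided sign-flip test gave p = 0.063, the smallest that 5 libraries allow. Joined captures held 16.9 to 35.3 zone molecules on average, against 0.411 to 0.699 in pure Kupffer captures.

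Few joined captures held mostly pericentral zone molecules, as few pure endothelial captures did. Such classes depend on how abundant the chosen genes are, and Ltbp4 and Ntn4 alone supplied 5018 and 5174 periportal molecules in joined captures. They were not calibrated to the position of a cell. Of joined captures with at least 5 zone molecules, 4.35, 4.78 and 15.3% were mostly pericentral (at least 80% of zone molecules) in pIVCL, against 13.0 and 4.72% in sham. In pure endothelial captures 5.24, 3.02 and 5.48% were mostly pericentral in pIVCL, against 9.51 and 4.96% in sham. The joined share was lower than the pure one in pIVCL 1 and sham 2 and higher in the other libraries. Captures between the zones, at above 20% and below 80%, made up 43.5, 59.6 and 55.9% of joined captures in pIVCL, against 42.2 and 41.2% in sham. Among pure endothelial captures, 32.6, 40.8 and 50.4% lay between the zones in pIVCL, against 42.1 and 36.9% in sham. When only captures with 50 or more molecules on both sides were kept, a choice made after seeing the data, the mean difference of the pericentral share was 6.59 points and the smallest was 0.432.

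Between the operations the pericentral share of joined captures did not pass a test. It averaged 37.5 ± 10.8% in pIVCL and 30.6 ± 6.24% in sham (SD, n = 3 and 2; exact permutation p = 0.6). The difference of 6.92 points rested on pIVCL 3: it was 0.953 without that library and 2.51 without sham 2. Within batch 2021.3 it was -2.21 points. Zone genes also differed between the operations in pure endothelial captures. Scaled to endothelial core molecules as in the next paragraph, Fabp4 averaged 27.8 in pIVCL and 8.37 in sham, and Selp was also higher. The other pericentral genes had lower means, Kit at 2.35 in pIVCL and 5.19 in sham. All periportal genes had higher means, Dll4 at 12.5 in pIVCL and 5.03 in sham. The share thus cannot tell a change of zone from changed gene levels, which was not tested.

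Single zone genes did not all move alike. Per 1000 endothelial core molecules, Wnt9b, a Wnt ligand of the central vein, stood at 0.350, 0.871 and 0.948 in joined captures of pIVCL, against 2.26 and 0.483 in those of sham. In pure endothelial captures it stood at 0.131, 0.196 and 0.224 in pIVCL, against 0.643 and 0.315 in sham. Wnt9b was higher in joined captures in 5 of 5 libraries, with 180 molecules in all. That count depended on captures near the threshold: when joined captures had to hold 50 or more molecules of both gates and pure ones 50 or more of their own, Wnt9b was higher in joined captures in 2 of 5 libraries, at 0, 0.877 and 0 per 1000 in pIVCL, against 0.903 and 0.181 in sham.

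Fabp4, a fatty acid carrier, stood at 21.9, 42.5 and 48.9 per 1000 in joined captures of pIVCL, against 17.4 and 9.93 in those of sham, and at 19.1, 28.8 and 35.4 in pure endothelial captures of pIVCL, against 9.66 and 7.08 in those of sham. Selp, the adhesion molecule P-selectin, was also higher in joined captures in 5 of 5 libraries, by 1.28 to 6.97 times. Fabp4 supplied most pericentral molecules, 4700 of the joined ones. Kit, the stem cell factor receptor of pericentral sinusoids, ran the other way and was lower in joined captures in 5 of 5 libraries, at 0.762 to 0.986 times the pure level. Wnt2 was higher in 5 of 5 libraries, at 1.04 to 1.85 times. With 50 or more gate molecules required on both sides, Wnt2 was higher in joined captures in 2 of 5 libraries, Selp in 4 of 5, Fabp4 in 5 of 5 and Kit in 1 of 5.

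On the periportal side, the ephrin gene Efnb2 was lower in joined captures in 5 of 5 libraries, at 0.573 to 0.967 times the pure level. Dll4, a Notch ligand, was higher in 2 of 5 and Ltbp4, a TGF-beta binding protein, in 2 of 5. Outside the zone lists, Edn1 (endothelin) was higher in joined captures in 5 of 5 libraries, at 4.34, 4.82 and 8.62 per 1000 in pIVCL, against 4.16 and 0.464 in sham. Pure endothelial captures held 3.59, 1.68 and 4.35 of Edn1 in pIVCL, against 0.490 and 0.439 in sham. In sham 1, but not in sham 2, joined captures thus stood far above the pure class in Wnt9b, Selp and Edn1.

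The Kupffer partner resembled the pure Kupffer captures of its own library. Timd4, the receptor for phosphatidylserine on long-resident Kupffer cells, stood at 12.2, 8.79 and 8.32 per 1000 Kupffer core molecules in joined captures of pIVCL, against 17.1 and 18.7 in those of sham. In pure Kupffer captures it stood at 11.2, 7.60 and 8.12 in pIVCL, against 16.4 and 16.4 in sham. The levels of Timd4 followed the library far more than the class, at 1.02 to 1.16 times the pure level.

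Cxcl13, a B cell chemokine, stood at 9.54, 6.24 and 9.54 per 1000 in joined captures of pIVCL, against 5.49 and 6.38 in those of sham, and at 8.73, 6.25 and 14.4 in pure Kupffer captures of pIVCL, against 4.73 and 8.43 in those of sham. Its median ratio of joined over pure was 0.998. Marco, a scavenger receptor of Kupffer cells near the portal tract, was higher in joined captures in 4 of 5 libraries, with a median ratio of 1.47. Hmox1, which breaks down heme, was higher in 5 of 5, with ratios of 1.02 to 1.66.

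Trem2 and Mmp12 were lower in the joined captures. Trem2, a lipid receptor, stood at 0.867, 1.16 and 1.43 per 1000 in joined captures of pIVCL, against 0.810 and 0.569 in those of sham. In pure Kupffer captures it stood at 1.25, 1.65 and 2.25 in pIVCL, against 1.29 and 0.937 in sham. Mmp12, a macrophage elastase, had 24 molecules in all joined captures, with a median ratio of 0.0672. Both genes were lower in joined captures in 5 of 5 libraries. For the antigen-presentation genes H2-Aa and Cd74 joined captures were higher in 3 of 5, at 0.899 to 1.22 and 0.923 to 1.13 times the pure level.

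**Figure D4:**
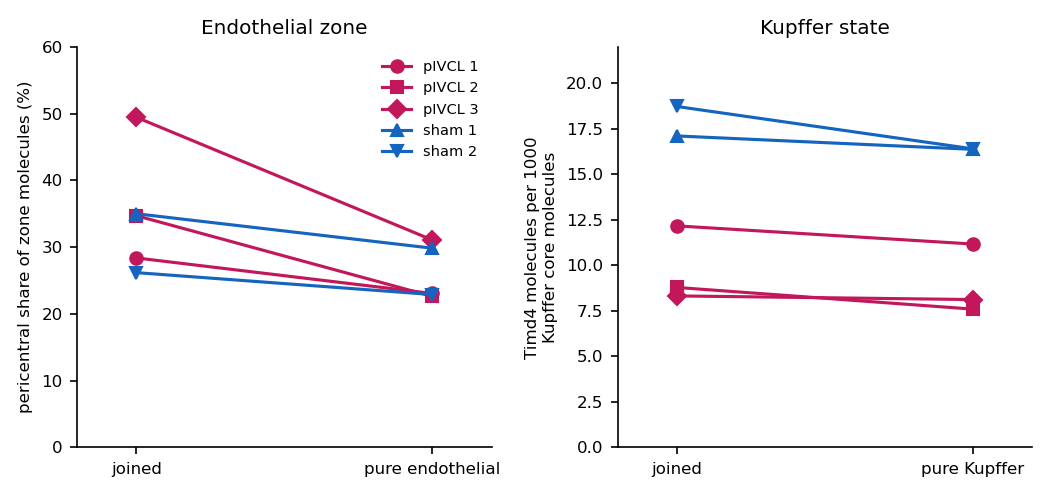
Left, pericentral share of zone molecules (%) in joined and pure endothelial captures, 1 line per library. Right, Timd4 molecules per 1000 Kupffer core molecules in joined and pure Kupffer captures. All 5 lines fall on the left, from joined to pure captures, whereas on the right the 2 sham lines lie above the 3 pIVCL lines in both classes.

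Next, pIVCL was compared with sham within joined captures, a contrast that the gate did not use. Molecules of the joined captures were summed per library and tested over 10974 genes with edgeR's quasi-likelihood test. At a Benjamini-Hochberg adjusted p under 0.05, 124 genes changed (1.13% of those tested), of which 84 rose (0.765%) and 40 fell (0.364%). At an unadjusted p under 0.05 there were 1796. In pure endothelial captures 561 of 11999 genes changed (4.68%; 2.43% rose and 2.25% fell), and in pure Kupffer captures 40 of 9292 (0.43%; 0.301% rose and 0.129% fell). Of the 124 genes, 63 also changed in pure endothelial captures (50.8% of the 124 and 11.2% of the 561), 19 in pure Kupffer captures and 49 in neither. These comparisons use the same libraries.

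The number of calls depended on single libraries. There were 1182 without pIVCL 1, 42 without pIVCL 2, 42 without pIVCL 3, 15 without sham 1 and 17 without sham 2. Of the 34 genes named below by rule, 34, 16, 17, 11 and 9 passed in those same fits, and none changed direction in any alternative. With batch as a term 16 of the 34 passed. Within batch 2021.3 alone 32 did, where 1 pIVCL library stands against 2 sham libraries and is assumed to vary as they do.

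Genes known to rise in the congested endothelium of these mice were also higher in joined captures. Of 16 such genes listed from earlier results on these samples, 9 rose, 0 fell and 7 did not pass, beside 0.765% rises and 0.364% falls over all genes tested. Their median log2 fold change was 2.36, against 0.01 over all genes. Since the list was chosen on these libraries, it is no independent evidence of its direction. Angpt2, a ligand of the Tie2 receptor, stood at 93.7, 90.7 and 64.8 CPM in pIVCL, against 7.29 and 6.45 CPM in sham. All 3 pIVCL libraries lay above both sham libraries. The log2 fold change of Angpt2 was 3.61 ± 0.26 (SE, adjusted p = 0.000145, edgeR).

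Esm1, a secreted proteoglycan of endothelial tip cells, rose by a log2 fold change of 3.00 ± 0.22 (adjusted p = 0.000145, edgeR). Its level was 214, 211 and 153 CPM in pIVCL, against 21.2 and 26.9 CPM in sham. Depp1, a stress-responsive gene, stood at 78.1, 179 and 146 CPM in pIVCL, against 6.25 and 5.61 CPM in sham (log2 fold change 4.52 ± 0.40, adjusted p = 0.00193). Kcnj8, a subunit of an ATP-sensitive potassium channel, stood at 42.9, 55.0 and 67.1 CPM in pIVCL, against 4.52 and 6.73 CPM in sham (log2 fold change 3.25 ± 0.30, adjusted p = 0.000814). The pIVCL libraries lay above the sham libraries for each of these genes, as for 33.2% of all genes tested when either direction is counted. Angpt2, Depp1 and Kcnj8 passed under all 19 alternatives, and Esm1 under 18.

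Ccn2, a matricellular growth factor that responds to stretch, stood at 811, 501 and 541 CPM in pIVCL, against 40.3 and 64.0 CPM in sham (log2 fold change 3.55 ± 0.29, adjusted p = 0.00104). Igfbp3, an IGF carrier, rose by 4.40 ± 0.49 on the log2 scale (adjusted p = 0.0179), being highest in pIVCL 1 at 316 CPM. Plvap rose by 2.02 ± 0.17 (adjusted p = 0.000586) and Fbln5 by 2.30 ± 0.33 (adjusted p = 0.0138), both on the log2 scale. Pure endothelial captures showed log2 fold changes of 4.32 for Ccn2, 4.78 for Igfbp3, 1.69 for Plvap and 2.54 for Fbln5, each past the threshold there. Lyve1, a hyaluronan receptor, averaged 1578 CPM in pIVCL and 244 CPM in sham and did not pass (log2 fold change 2.70 ± 0.64, adjusted p = 0.168).

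Endothelial genes known to fall in these mice were lower too. Of 17 tested from a list chosen on the same libraries, 6 fell, 0 rose and 11 did not pass, with a median log2 fold change of -0.72. Over all genes tested, 0.364% fell and 0.765% rose. Tiam1, an activator of the GTPase Rac, stood at 4.88, 5.87 and 3.47 CPM in pIVCL, against 36.5 and 54.7 CPM in sham (log2 fold change -3.13 ± 0.31, adjusted p = 0.00104). Slco2a1, a prostaglandin transporter, stood at 35.1, 23.5 and 26.6 CPM in pIVCL, against 133 and 116 CPM in sham (log2 fold change -2.18 ± 0.20, adjusted p = 0.000851). The anion transporter family gene Slc26a10 fell by 3.05 on the log2 scale, and the syntrophin gene Sntb1 by 1.88. Tiam1, Slco2a1 and Slc26a10 passed under all 19 alternatives.

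The transmembrane collagen gene Col13a1 averaged 28.5 ± 4.45 CPM in pIVCL and 90.6 ± 9.20 CPM in sham (log2 fold change -1.62, adjusted p = 0.00348). Podxl, a sialomucin, fell by 1.57 on the log2 scale, the semaphorin receptor gene Plxnc1 by 1.29, the cytokine receptor gene Lifr by 1.28 and the junction gene Jam2 by 1.10. All of these but Jam2 also fell in pure endothelial captures. Among the zone genes, Kit averaged 30.5 ± 4.88 CPM in pIVCL and 62.5 ± 6.40 CPM in sham and fell by 1.05 on the log2 scale. The glycosyltransferase gene Galnt15 rose by 1.58, whereas the adhesion receptor gene Adgrg6 fell by 1.66 and the scavenger receptor gene Msr1 by 0.71. Msr1 is no marker of 1 partner here, as pure Kupffer captures held 839 CPM of it in pIVCL and 1118 CPM in sham, and pure endothelial captures 793 CPM in pIVCL and 1166 CPM in sham. Of 9 pericentral genes tested 0 rose and 1 fell, and of 12 periportal genes, Msr1 among them, 1 rose and 2 fell. Over all genes tested, 0.765% rose and 0.364% fell. Adgrg6 passed under 6 of the 19 alternatives.

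Genes of the Kupffer partner changed beside the endothelial ones. Of 26 genes of Kupffer states, 1 rose, 4 fell and 21 did not pass, with a median log2 fold change of -0.11. Among all genes tested the shares were 0.765% for rises and 0.364% for falls. Vcam1, an adhesion molecule that Kupffer cells express, stood at 785, 719 and 714 CPM in pIVCL, against 377 and 336 CPM in sham (log2 fold change 1.05 ± 0.15, adjusted p = 0.00886). Timd4 stood at 424, 288 and 277 CPM in pIVCL, against 675 and 702 CPM in sham (log2 fold change -1.07 ± 0.19, adjusted p = 0.0262). In pure Kupffer captures Vcam1 changed by 1.23 and Timd4 by -0.86 on the log2 scale, each past the threshold.

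The chemokine gene Ccl24 fell by 1.07 on the log2 scale (adjusted p = 0.0285), the folate receptor gene Folr2 by 0.72 (adjusted p = 0.0443) and the nuclear receptor gene Nr4a1 by 1.23 (adjusted p = 0.022). Gbp2b, a guanylate-binding protein, fell by 1.77 (adjusted p = 0.0142) and the inhibitory receptor gene Lilrb4a by 1.44 (adjusted p = 0.0266), both on the log2 scale. Nr4a1 averaged 43.6 ± 10.8 CPM in pIVCL and 102 ± 11.4 CPM in sham. Of these, Nr4a1 and Ccl24 also fell in pure Kupffer captures, where Folr2, Gbp2b and Lilrb4a did not pass. Timd4 passed under 11 of the 19 alternatives, Folr2 under 8 and Vcam1 under 16.

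Other lists held few genes that passed, beside 1.13% of all genes tested, and were not tested against that share. None of 17 lysosomal genes passed, with a median log2 fold change of -0.09. None of 16 cell cycle genes passed either, but their median was -0.88, with 1 of 16 above 0, against 0.01 over all genes. Of 20 immediate early and stress genes 1 fell (Nr4a1), with a median of -0.62. Of 30 adhesion and contact genes 1 rose (Vcam1) and 1 fell (Jam2). Of 14 genes of efferocytosis, the uptake of dying cells, Timd4 alone fell. The interferon-induced chemokine gene Cxcl9 rose by a log2 fold change of 1.14 (adjusted p = 0.0285), as 1 of 18 interferon genes. Oit3, a protein of sinusoidal endothelium, rose by 0.91, the only rise among 34 further endothelial genes. In pure endothelial captures the log2 fold change of Oit3 was 0.39 and did not pass (adjusted p = 0.119, edgeR). The mixture of both pure profiles gave a log2 ratio of 0.89 for Oit3, and joined captures 0.94, from plain CPM means. The part of the partner shares in this rise was not tested. The 7 gate genes did not pass.

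Some genes from the lists of other cells passed too, beside 1.13% of all genes tested. Of 25 hepatocyte genes 2 rose, the fibrinogen gene Fga by 3.06 and the fetuin gene Ahsg by 2.42, and Apoc1, which macrophages also express, fell by 0.86, all on the log2 scale, with a median of 1.84. The hepatocyte list made up 0.230 to 0.300% of joined molecules in pIVCL and 0.231 to 0.259% in sham, and none of its genes was at 0. None of 12 stellate and fibroblast genes passed, with a median log2 fold change of 1.43, and their list made up 0.144 to 0.389% of joined molecules in pIVCL and 0.0620 to 0.104% in sham. The erythroid list made up 0.00595 to 0.133% in pIVCL and 0.00235 to 0.00868% in sham. The shares of the hepatocyte and erythroid lists thus overlapped between the groups, whereas those of the stellate and fibroblast list did not. The hepatocyte share is weighted by Apoc1, its highest gene, which averaged 825 CPM in pIVCL and 1497 CPM in sham. Of the 25 hepatocyte genes, 22 had a log2 fold change above 0, so that share does not describe most genes of the list. A share without Apoc1 was not computed. Fn1 (fibronectin), from the monocyte list, rose by 2.05 on the log2 scale, and endothelium, stellate cells and hepatocytes express it too. The part of these cells in the gene changes was not tested. In summed captures, fewer cells of a partner and less RNA per cell cannot be told apart.

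**Figure D5:**
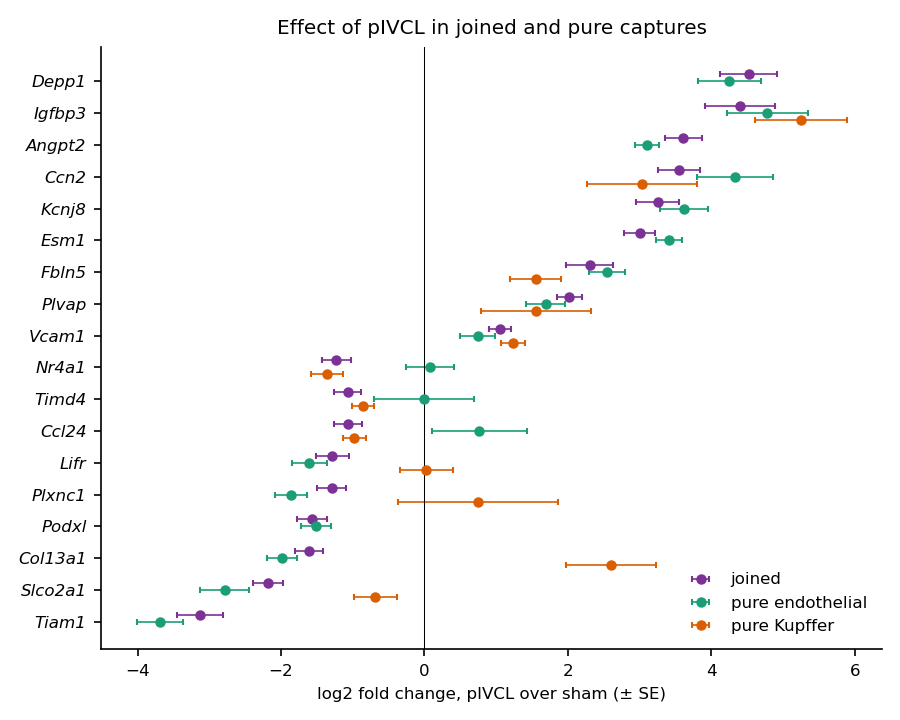
Log2 fold change of pIVCL over sham (x axis, ± SE) for named genes in joined, pure endothelial and pure Kupffer captures. Joined values (purple) stand beside endothelial ones (green) for endothelial genes such as Angpt2 and Tiam1, and beside Kupffer ones (orange) for Timd4, Ccl24 and Nr4a1.

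A fold change predicted from the mixture of both pure profiles was set beside the observed one. For Angpt2 the mixture gave a log2 ratio of pIVCL over sham of 3.55 and the joined captures 3.62, and for Slco2a1 it gave -2.01 and the joined captures -2.11. For Timd4 the mixture gave -1.02 and the joined captures -1.04, and for Vcam1 1.06 and 1.08. Several genes differed more. The mixture gave 3.80 for Esm1, 4.57 for Ccn2 and 5.27 for Igfbp3, against 3.03, 3.60 and 4.47 in the joined captures. It gave -0.23 for Adgrg6 and -2.47 for Slc26a10, against -1.62 and -3.10 in the joined captures. These ratios are of plain CPM means without TMM scaling, and are given as a description because the joined captures set the mixture's weights.

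The difference between the pIVCL effect in joined captures and that in pure captures was tested in 1 model with library as a block. Against pure endothelial captures, 86 of 11634 genes differed (0.739%), 16 with a higher effect in joined captures (0.138%) and 70 with a lower one (0.602%). Against pure Kupffer captures 0 genes differed (0%) by edgeR at the adjusted threshold, with 775 at an unadjusted p under 0.05 and a lowest adjusted p of 0.101. No other tool was run on this difference. Joined captures hold molecules of both partners, so neither test can tell a changed effect in 1 partner from the other partner's molecules. The count against pure endothelial captures was 666 without pIVCL 1 and 51, 49, 10 and 25 without pIVCL 2, pIVCL 3, sham 1 and sham 2 in turn. The count against pure Kupffer captures was 15, 2, 2, 0 and 0 in the same order.

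Among the genes named above by rule, none had a pIVCL effect in joined captures that differed at the adjusted threshold from that in either pure class. For Angpt2 the difference from pure endothelial captures was 0.52 ± 0.30 (adjusted p = 0.596), and for Tiam1 it was 0.61 ± 0.36 (adjusted p = 0.605). For Timd4 the difference from pure Kupffer captures was -0.23 ± 0.39 (adjusted p = 0.971), and for Vcam1 it was -0.21 ± 0.29 (adjusted p = 0.962), all as log2 values ± SE. A p that misses the threshold does not show that the effects were equal.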

How the data were processed

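Whole-transcriptome libraries of liver non-parenchymal cells were made with BD Rhapsody chemistry. The authors deposited molecule counts per gene and cell index; per the file headers, molecular identifiers had been corrected with the recursive substitution step. Version 1.9.1 of the manufacturer's pipeline and build GRCm39 come from the submitters' processing notes; which aligner and annotation were used is not given in the sources used here. The labels gave group, replicate number and batch.

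Captures with at least 500 molecules, at least 200 genes and at most 25% mitochondrial molecules were kept. Neither a doublet caller nor an ambient-RNA correction was applied, since joined captures are what a caller would remove. The members, gene lists and tests were chosen with earlier results of these data known. Core, zone and state genes counted for a partner when their level in the other pure class was under 10% of that in their own. Captures counted for B and stellate cells at 10 or more, and for T cells at 5 or more, molecules of 4 genes each. Counts were summed per library and class and tested with edgeR 4.0.16 (robust quasi-likelihood, TMM, filterByExpr, Benjamini-Hochberg at 0.05) in R 4.3.3. CPM in the tests of pIVCL against sham are TMM-scaled, and other CPM are not. Group values are means ± SD over libraries. Exact permutation and sign-flip tests were two-sided. Captures were thinned to 2000 molecules without replacement.

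Genes were named by rule: among genes past 0.05 without overlap between the groups' libraries and with a mean log2 CPM of at least 5, leaving out other cell types' lists, the 8 largest rises and the 8 largest falls, plus up to 4 members of lowest p from each list that passed. Gatm, Plau and Susd4 passed within lists but are outside that rule. Genes above the mixture, Lyve1, and the genes with differing effects were picked after their values were seen. The gene test was checked on simulated counts. Alternatives were DESeq2 1.42.0 (size factors, Wald test), no expression filter, batch as a term or 2021.3 alone, a replicate block, leaving out each library, thresholds of 5, 20 and (added later) 50 molecules, a threshold of 4 on captures thinned to 2000, stricter capture filters, other limits on purity, and removal of gate genes or of captures with other cells' markers.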

Additional observations from a re-analysis of the deposited data

Results flagged for a closer look

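The pIVCL effect differed between joined and pure endothelial captures, by the interaction test of edgeR with library as a block, most clearly in 4 genes named after their values were seen. The difference of the log2 effects was -3.88 for Slc16a9 (adjusted p = 4.48e-08) and -2.62 for Slc45a3 (adjusted p = 0.000151). Pdgfb and Igf1 had differences of -1.82 and -1.74, each at an adjusted p of 0.000167.

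Slc16a9, a carnitine transporter gene, stood at 139, 142 and 132 CPM in joined captures of pIVCL, against 163 and 139 CPM in those of sham. In pure endothelial captures it stood at 19.5, 25.1 and 32.2 CPM in pIVCL, against 2.15 and 1.41 CPM in sham, and in pure Kupffer captures at 211 to 220 CPM in pIVCL and 179 to 238 CPM in sham. In pure endothelial captures the pIVCL libraries thus lay above sham, at a level far below the Kupffer one, whereas in the other classes the groups overlapped. The mixture of both pure profiles gave a log2 ratio of pIVCL over sham of -0.06 for Slc16a9, and joined captures -0.14. For Igf1 the mixture gave -0.38 and joined captures -0.31, and for Pdgfb 0.92 and 1.02. The adjusted p of the Slc16a9 effect itself was 0.67 in joined and 0.00282 in pure endothelial captures. Pdgfb averaged 103 CPM in joined captures of pIVCL and 51.0 CPM in those of sham, 161 CPM in pure endothelial captures of pIVCL and 21.2 CPM in those of sham, and 56.8 CPM in pure Kupffer captures of pIVCL and 63.9 CPM in those of sham. The origin of the Slc16a9 molecules in pure endothelial captures was not tested. Nor was the part that Kupffer molecules of the joined captures have in these differences.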

How the results depend on the processing

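Against 124 genes that changed between pIVCL and sham in joined captures, leaving out 1 library gave 15 to 1182, no expression filter 913, batch 2021.3 alone 393, a threshold of 5 molecules 28, a threshold set on thinned captures 192 and the DESeq2 Wald test 247; the cause was not tested. DESeq2 size factors gave 123, batch as a term 155 (51 shared), a threshold of 20 gave 142, of 50 gave 141, stricter filters 83, no captures with B, T or stellate molecules 96, and no gate genes 124. With replicate number as a block 68 genes passed, against 42 in the same 4 libraries without the block. The correlation of deviations from the group means was -0.094, which is 1 value shared by both pairs by construction. It cannot decide whether the numbers pair the samples. The 86 differences from pure endothelial captures became 10 to 666 without 1 library and 522 without the filter. The 0 differences from pure Kupffer captures became 0 to 15 without 1 library, 108 without the filter, 10 at a threshold of 20, 8 on thinned captures and 3 with pure captures free of the other gate. Within batch 2021.3 the pairing ratio difference was -0.00830 and that of the pericentral share -2.21 points, both turned round. Over 34 named genes and 19 alternatives, 0 of 645 comparisons reversed and 189 no longer passed. Some genes rested on few joined molecules, with 24 for Mmp12 and 22 for Ramp3. Pure Kupffer captures held 12, 48 and 65 molecules of Mmp12 in pIVCL, against 72 and 56 in sham.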
